A study of Rattus norvegicus with 6 samples.

Results

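The genes described here encode the ligands and receptors of the FGF, PDGF, VEGF, EGF and HGF families in the newborn rat ovary. They were chosen by gene symbol and not by any measured value. All FGF ligands and FGF receptors on the array were taken, with the PDGF and VEGF ligands, the EGF family ligands, the ERBB receptors, HGF and its receptor Met. The genes called FGF ligands here include Fgf11 to Fgf14, whose products are FGF homologous factors that are not secreted. The symbols given to single probe sets by the platform annotation yielded 47 genes, each with 1 probe set, out of 27342 probe sets in all, of which 15097 carry 1 symbol. Fgf18, Nrg3 and Nrg4 fit the same description but had no probe set with that symbol alone and were not analysed here.

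Growth factors of these families are secreted or membrane-bound proteins that bind receptor tyrosine kinases. The bound receptors phosphorylate adaptor proteins, which switch on the Ras and MAP kinase cascade and PI3 kinase. The cascade raises transcription of early response genes such as Egr1 and Fos and of inhibitors such as the sprouty proteins and dual-specificity phosphatases, which damp the same signal. In the ovary, FGF2 from the oocyte, FGF7 (keratinocyte growth factor) and HGF from theca and stroma, PDGF and the VEGF ligands are known as local signals. They pass between oocytes, granulosa cells, stroma and vessels at stages from primordial to growing follicles. The study describes the newborn ovary as nearly all nests of oocytes not yet assembled. The theca named here and below therefore belongs to later stages.

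The study asked which ovarian transcripts change when CTGF is added during follicle assembly. CTGF (connective tissue growth factor, now also named CCN2) is a secreted matrix-associated protein, and the human protein was used. Whole ovaries of female Sprague-Dawley rat pups, 0 days old and under 8 h after birth, were cultured for 24 h with no treatment in the control group or with 500 ng/ml CTGF in the CTGF group. Each group had 3 samples, and every sample was a pool of 2 to 3 ovaries taken from 1 culture well and from different pups of 1 litter. With the replicate number taken as the organ culture date batch, each of the 3 batches held 1 control and 1 CTGF sample. Both groups shared the same DMEM and Ham's F-12 medium with albumin, Albumax, transferrin and ascorbic acid. Transcripts were measured on Rat Gene 1.0 ST arrays, and the array medians of the deposited log2 signals lay between 5.82 and 5.84. Of 12 oocyte markers looked for, 7 were measured, and all 7 lay above the background level described below. Zp1, with a mean of 5.855, lay closest to that level. The oocyte gene Ddx4 read between 9.22 and 9.48 in the 6 arrays.

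A log2 signal of a probe set can be read only against an estimate of background. For this, genes of tissues such as the retina, lens, pancreas and stomach were taken as silent in the ovary. Of 65 such genes looked for, 53 were measured, with a median log2 signal of 4.39, a 95th percentile of 5.72 and a maximum of 6.21. The mean signal of 18 of the 47 growth factor genes (38.3%) lay above the 95th percentile, against 51.4% of all probe sets. These were the 4 FGF receptors, Erbb2 and Met among the receptors, and Fgf9, Fgf12, Fgf13, Pdgfa, Pdgfc, Pdgfd, Vegfa, Vegfb, Vegfc, Btc, Hbegf and Nrg1 among the ligands. From here on, signals called above the silent genes lie above this percentile, the silent-gene level. Of the 18 genes, 14 also lay above the silent-gene maximum, and Fgf12, Btc, Fgfr3 and Fgfr4 did not. The 29 genes not above the 95th percentile, with 18 of the 21 FGF ligands and with Egfr, Erbb3, Erbb4 and Hgf among them, had signals that silent genes can also give. Whether the probes of those 29 genes read their transcripts at all in this tissue cannot be told from the signals. The level of one probe set was not set against that of another gene otherwise, since probes differ in affinity.

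**Figure D1:**
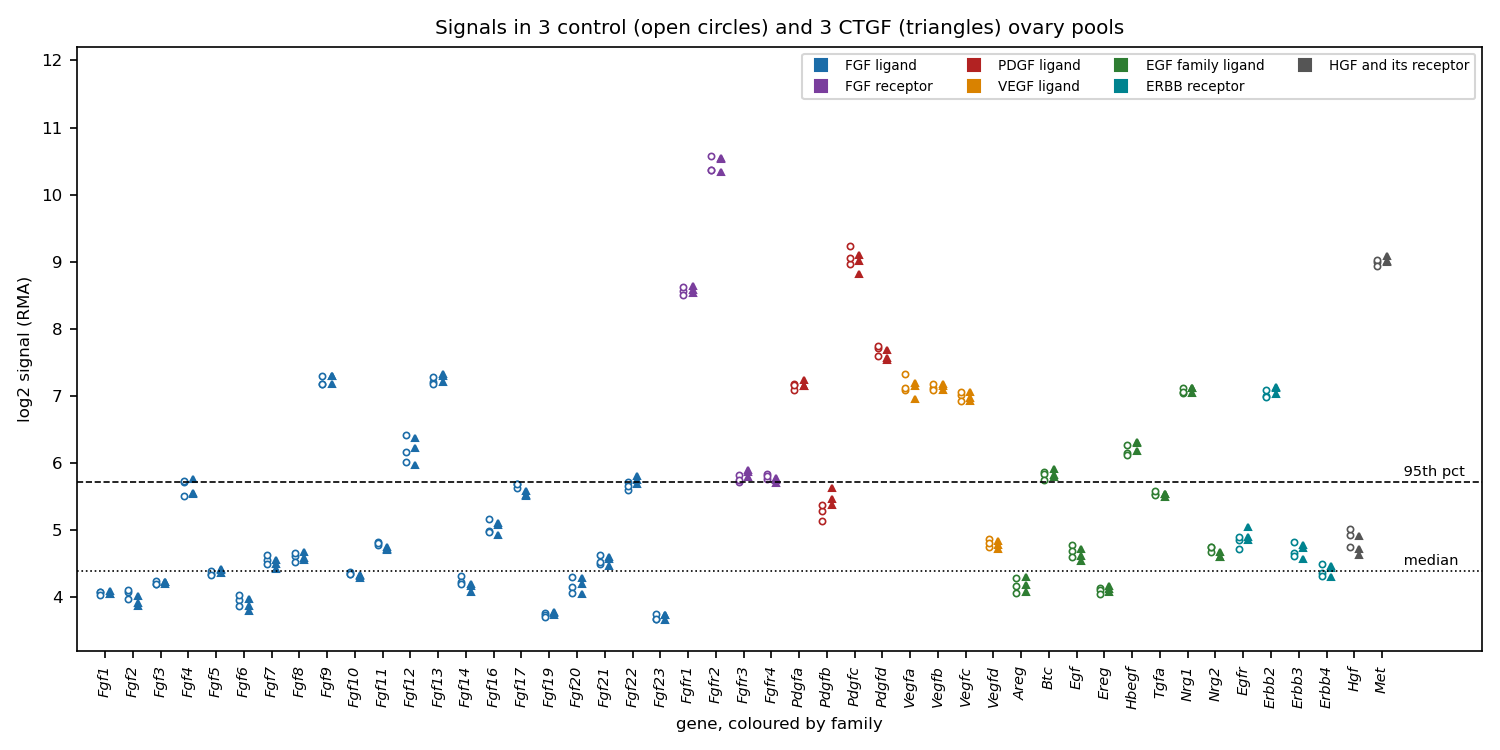
Log2 RMA signal (vertical axis) of the 47 growth factor genes (horizontal axis, coloured by family) in the 3 control samples (open circles) and the 3 CTGF samples (triangles). The dashed and dotted lines are the 95th percentile (5.72) and the median (4.39) of the 53 silent tissue genes; 18 genes have a mean above the dashed line, and for each gene the 2 groups lie close together.

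CTGF treatment was not followed by a change in any of the 47 genes that passed a test. Tested with limma, pairing the samples by culture batch, 0 of 47 had an adjusted p under 0.05, and the lowest adjusted p was 0.994. Over all probe sets 0 passed as well (0.0%). At an unadjusted p under 0.05 the count was again 0 of 47, where 3.35% of all probe sets passed, and the 2-way test named in the methods gave 0 of 47 at its unadjusted threshold, against 1147 probe sets over the whole array. The study also listed genes by size, asking that the un-logged group means have a ratio above 1.2 or below 0.83 and lie more than 10 units apart, with an unadjusted p under 0.05. These criteria were met by 0 of the 47 genes whichever p was used. With the p of limma they were met by 0.435% of all probe sets, and with the p of the 2-way test, which the study used, by 0.11%. These shares follow the criteria as the methods state them. The study's own list also holds genes whose un-logged means lie less than 10 units apart, so the shares do not describe that list. With no minimum difference the count with the p of limma was also 0 of the 47 genes.

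The paired differences of CTGF minus control, averaged over the batches, ran from -0.14 for Hgf to 0.22 for Pdgfb on the log2 scale. They were above 0 in 23 genes, below 0 in 21 and 0 in 3. Their median was 0.0, against -0.003 over all probe sets, and the median of their absolute size was 0.037, against 0.05. In 3 genes (6.38%), Fgf10, Fgf11 and Fgf17, the difference had one direction in all 3 batches, which in these values is the same as control and CTGF samples that do not overlap. Over all probe sets this share was 20.3%. All 3 of these genes had signals below the silent-gene level and were lower with CTGF.

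The intervals show how large a change could have been missed. The moderated 95% interval of the log2 difference lay within 1.2-fold either way (0.263 on the log2 scale) for 30 of the 47 genes, and for 11 of the 18 with signals above the silent genes. For the other 17 genes a change of 1.2-fold lay inside the interval. No interval reached 1.5-fold (0.585), and the outermost bounds were -0.42 for Hgf and 0.46 for Pdgfb. These intervals rest on 3 paired differences and on a spread that is partly borrowed from the other probe sets, and they hold for signals as measured. In genes near background the true change can be larger than the measured one.

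**Figure D2:**
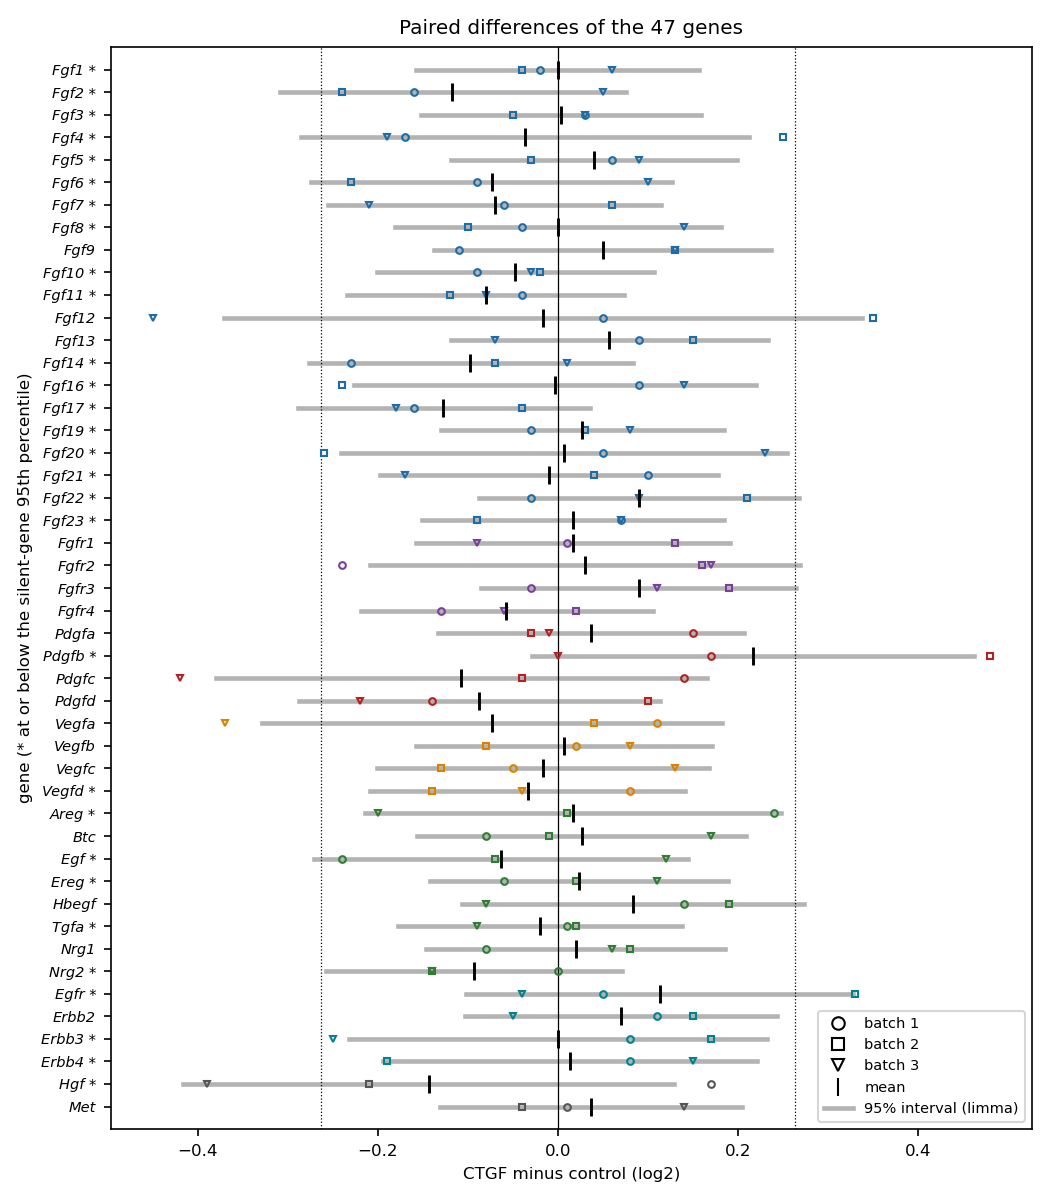
CTGF minus control on the log2 scale (horizontal axis) for each of the 47 genes (vertical axis; an asterisk marks the 29 at or below the silent-gene level). Open symbols are the 3 batches, black ticks their means and grey bars the moderated 95% intervals from limma; all intervals cross 0, and the dotted lines mark 1.2-fold, which 17 of the bars pass.

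**Figure D3:**
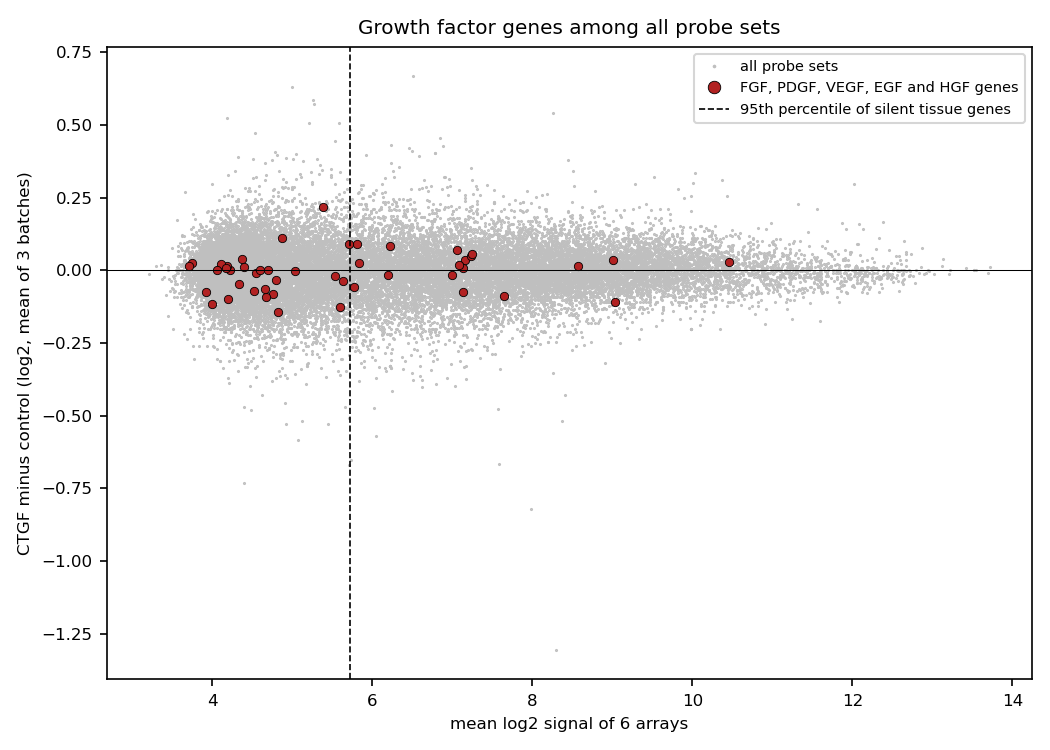
CTGF minus control (vertical axis, log2, mean of 3 batches) against the log2 signal averaged over the arrays (horizontal axis) for all 27342 probe sets (grey) and the 47 growth factor genes (red). The red points run from -0.14 to 0.22 and lie inside the grey cloud, and the dashed line is the silent-gene level of 5.72.

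The FGF receptors are the kinases through which the secreted FGFs act. All 4 had signals above the silent-gene level, but Fgfr3 and Fgfr4 stayed below the silent-gene maximum. Fgfr2, which binds FGF7 and FGF10 in its epithelial form, read 10.57, 10.37 and 10.37 in the controls of batches 1, 2 and 3 and 10.33, 10.53 and 10.54 in the CTGF samples. It was lower with CTGF in batch 1 and higher in the other two, with a mean log2 difference of 0.03 ± 0.099 (SE, n = 3 pairs; 95% interval -0.21 to 0.27). Fgfr1 read 8.57, 8.51 and 8.62 in the controls and 8.58, 8.64 and 8.53 with CTGF, and its log2 difference was 0.017 ± 0.072 (95% interval -0.16 to 0.19). The groups overlapped in both genes.

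Fgfr3 and Fgfr4 lay just above the silent-gene level. Fgfr3 read 5.82, 5.71 and 5.75 in the controls and 5.79, 5.90 and 5.86 with CTGF, a log2 difference of 0.09 ± 0.072 (SE, n = 3 pairs; 95% interval -0.085 to 0.27). Fgfr4 read 5.83, 5.76 and 5.80 against 5.70, 5.78 and 5.74, a log2 difference of -0.057 ± 0.067 (95% interval -0.22 to 0.11). In each of these genes 1 batch ran against the other 2, and the samples of the groups overlapped. The 95% intervals of the 4 receptors lay between -0.22 and 0.27.

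The ERBB receptors take the EGF family ligands. ERBB2 binds no ligand by itself and pairs with the other ERBB proteins, and its transcript was the only one of the 4 above the silent genes. Erbb2 read 7.0, 6.98 and 7.08 in the controls and 7.11, 7.13 and 7.03 with CTGF, a log2 difference of 0.07 ± 0.071 (SE, n = 3 pairs; 95% interval -0.10 to 0.24). It was higher with CTGF in batches 1 and 2 and lower in batch 3. Egfr, the receptor of EGF, TGF-alpha and amphiregulin, read 4.85, 4.71 and 4.89 in the controls and 4.90, 5.04 and 4.85 with CTGF. Its log2 difference of 0.11 ± 0.089 (95% interval -0.10 to 0.33) came largely from batch 2, where the CTGF sample was 0.33 higher. Without batch 2 the difference was 0.005.

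The neuregulin receptors Erbb3 and Erbb4 had signals between the median and the 95th percentile of the silent genes. Erbb3 read 4.65, 4.61 and 4.82 in the controls and 4.73, 4.78 and 4.57 with CTGF, and its 3 paired differences averaged 0.0 ± 0.095 (SE, n = 3 pairs). Erbb4 read 4.36, 4.49 and 4.32 against 4.44, 4.30 and 4.47, a log2 difference of 0.013 ± 0.086. Their 95% intervals were -0.23 to 0.23 and -0.19 to 0.22, and the groups overlapped.

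Met, the receptor of HGF, read 9.0, 9.03 and 8.94 in the controls and 9.01, 8.99 and 9.08 with CTGF. The log2 difference was 0.037 ± 0.069 (SE, n = 3 pairs), and the 6 values spanned a narrow range in which the groups overlapped. Its 95% interval, -0.13 to 0.205, lay within 1.2-fold.

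Promoter letters were read for these genes with a motif of EGR1, an early response factor whose transcript was among those with a low unadjusted p described further on. The motif was chosen after those values were seen. It was spelled GCGNGGGCG, searched on both strands, and it overlaps the GC boxes bound by other factors. In the RefSeq promoters of the GRCr8 build (250 bases before to 50 after each start site) it occurred in 4.98% of 33469 promoters. Of the 47 genes 39 had a promoter entry, and 6 of these (15.4%) held it: Tgfa, Fgf8, Fgfr2, Fgfr3, Vegfb and Vegfc. The stretches below come from the 3 of them with signals above the silent genes whose motif lay before the start site, each 5′ to 3′ on the gene's own strand, which is the minus strand of the build, with the motif in capitals. They lie at chr1:194280915-194280973 for Fgfr2, chr14:81227289-81227369 for Fgfr3 and chr1:213607215-213607295 for Vegfb.
Fgfr2: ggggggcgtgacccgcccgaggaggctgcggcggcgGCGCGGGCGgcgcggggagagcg
Fgfr3: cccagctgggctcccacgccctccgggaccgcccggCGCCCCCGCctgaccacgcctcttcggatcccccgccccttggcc
Vegfb: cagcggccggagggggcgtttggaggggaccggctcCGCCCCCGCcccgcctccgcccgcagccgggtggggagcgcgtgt
The motif began 23, 124 and 107 bases before the start site, and in Fgfr3 and Vegfb it reads on the other strand. The 6 genes with the motif had log2 differences of -0.02 to 0.09 with a median of 0.004, and the median of the others with an entry was -0.01. A match of letters describes the window and is not a binding site.

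The FGF ligands, counted with the intracellular factors Fgf11 to Fgf14, were the largest group, with 21 genes. Of these 8 were higher, 11 lower and 2 unchanged to 3 decimals with CTGF. Only Fgf9, Fgf12 and Fgf13 had signals above the silent genes. Fgf9 is a secreted FGF of the developing gonad, and it read 7.29, 7.17 and 7.17 in the controls and 7.18, 7.30 and 7.30 with CTGF, a log2 difference of 0.05 ± 0.077 (SE, n = 3 pairs; 95% interval -0.14 to 0.24). Fgf12 and Fgf13 encode intracellular FGF homologous factors, which stay in the cell rather than being secreted. Fgf13 had a log2 difference of 0.057 (95% interval -0.12 to 0.23). Fgf12 had the widest spread of all 47 genes, with paired differences of 0.05, 0.35 and -0.45 in batches 1, 2 and 3, and their mean was -0.017 ± 0.146.

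Among the FGF ligands Fgf17 ranked first by p. This member of the FGF8 subfamily read 5.68, 5.62 and 5.69 in the controls and 5.52, 5.58 and 5.51 with CTGF. Every CTGF value lay below every control value, with a log2 difference of -0.13 ± 0.067 (SE, n = 3 pairs; 95% interval -0.29 to 0.036), but its mean signal was under the silent-gene level. Fgf11, a further homologous factor, read 4.78, 4.82 and 4.80 in the controls and 4.74, 4.70 and 4.72 with CTGF, a log2 difference of -0.08 ± 0.064 (95% interval -0.23 to 0.074). Fgf10, a mesenchymal ligand of FGFR2, differed by -0.09, -0.02 and -0.03 in the 3 batches (95% interval -0.20 to 0.11).

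Fgf2, basic FGF, is a ligand that oocytes make and that promotes early follicle growth. It read 4.07, 4.11 and 3.97 in the controls and 3.91, 3.87 and 4.02 with CTGF, a log2 difference of -0.12 ± 0.079 (SE, n = 3 pairs; 95% interval -0.31 to 0.076). It was lower in batches 1 and 2 and higher in batch 3, and all 6 of its values were under the silent-gene median. Fgf14, an intracellular homologous factor, read 4.31, 4.23 and 4.19 against 4.08, 4.16 and 4.20, a log2 difference of -0.097 ± 0.074 (95% interval -0.28 to 0.083). Fgf22, a secreted FGF related to FGF7, read 5.72, 5.60 and 5.66 against 5.69, 5.81 and 5.75, a log2 difference of 0.09 ± 0.074 (95% interval -0.088 to 0.27), and its mean of 5.71 was just under the silent-gene level. Fgf7, made by stroma and theca and received by FGFR2, differed by -0.07 (95% interval -0.26 to 0.12). The 18 FGF ligands under that level had differences from -0.13 to 0.09 with a median of -0.007.

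The PDGF ligands act on stromal cells and pericytes. Pdgfb, which vessels release to attract pericytes, had the largest mean difference and ranked first by p among the 47 genes. Its signals were 5.29, 5.14 and 5.38 in the controls and 5.46, 5.62 and 5.38 with CTGF. The CTGF sample was higher by 0.17 in batch 1 and 0.48 in batch 2 and equal in batch 3, so that the highest control met the lowest CTGF sample. The mean log2 difference was 0.22 ± 0.101 (SE, n = 3 pairs; 95% interval -0.029 to 0.46), and all 6 values lay below the silent-gene level. Without batch 2, the pair with the largest difference, it was 0.085.

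Pdgfd, a ligand of the beta receptor, read 7.71, 7.59 and 7.75 in the controls and 7.57, 7.69 and 7.53 with CTGF, a log2 difference of -0.087 ± 0.083 (SE, n = 3 pairs; 95% interval -0.29 to 0.11). Pdgfc, a ligand of the alpha receptor, read 8.96, 9.05 and 9.24 in the controls and 9.10, 9.01 and 8.82 with CTGF. Its log2 difference of -0.11 ± 0.112 (95% interval -0.38 to 0.17) joined a higher value in batch 1 and a much lower one in batch 3. Pdgfa, which in the ovary is known from oocytes and granulosa cells, read 7.08, 7.17 and 7.16 against 7.23, 7.14 and 7.15 and differed by 0.037 ± 0.07 (95% interval -0.13 to 0.21). The groups overlapped in each of these genes.

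The VEGF ligands drive the growth of blood and lymph vessels. Vegfa, the main angiogenic form, read 7.08, 7.11 and 7.32 in the controls and 7.19, 7.15 and 6.95 with CTGF. The difference was above 0 in batches 1 and 2 and -0.37 in batch 3, with a mean of -0.073 ± 0.105 (SE, n = 3 pairs; 95% interval -0.33 to 0.18). Vegfb and the lymphatic form Vegfc differed by 0.007 and -0.017, and Vegfd, under the silent-gene level, by -0.033. The 95% intervals of the 4 genes lay between -0.33 and 0.18. The summed un-logged signal of 7 measured endothelial markers was 489 to 544 in the controls and 448 to 494 with CTGF. Such a sum is carried by the probe sets with the highest signals. Averaged over the batches, 3 of the markers were higher and 4 lower with CTGF, with a median log2 difference of -0.093. Of the 7 markers, 3 lay above the silent genes, and their part in the VEGF values was not tested.

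Among the EGF family ligands, Nrg1, Hbegf and Btc had signals above the silent genes, and their mean differences were between 0.02 and 0.083. Hbegf, heparin-binding EGF, read 6.15, 6.12 and 6.26 in the controls and 6.29, 6.31 and 6.18 with CTGF, a log2 difference of 0.083 ± 0.078 (SE, n = 3 pairs; 95% interval -0.11 to 0.27). It was higher with CTGF in batches 1 and 2 and lower in batch 3, with overlapping groups. Nrg1 and Btc, ligands of ERBB3 or ERBB4 and of EGFR or ERBB4, differed by 0.02 and 0.027. Nrg2 read 4.67, 4.74 and 4.74 against 4.67, 4.60 and 4.60, a log2 difference of -0.093 ± 0.068 (95% interval -0.26 to 0.071), and its values in batch 1 were equal. The 5 ligands under the silent-gene level, Areg, Egf, Ereg, Nrg2 and Tgfa, had differences from -0.093 to 0.023.

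Hgf, a ligand that stroma and theca send to MET on epithelial and granulosa cells, had the lowest mean difference of the 47 genes. It read 4.74, 4.93 and 5.02 in the controls and 4.91, 4.72 and 4.63 with CTGF. The paired differences were 0.17, -0.21 and -0.39, and their mean was -0.14 ± 0.112 (SE, n = 3 pairs; 95% interval -0.42 to 0.13). It was -0.3 without batch 1, the pair that ran the other way, -0.11 without batch 2 and -0.02 without batch 3. Batch 1 was singled out by its value, so the unadjusted limma p under 0.05 without it is no support. With all 3 pairs the unadjusted limma p was 0.248. The mean signal was 4.83, below the silent-gene level.

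Batch 3 held the lowest differences, although over all 47 genes there were 23 higher and 23 lower there, with a median of 0.0. In that batch 4 of the 47 genes (8.51%) lay below -0.3, against 4.23% of all probe sets. They were Fgf12 at -0.45, Pdgfc at -0.42, Hgf at -0.39 and Vegfa at -0.37. Batches 1 and 2 had 0 such genes, but the share of all probe sets was not counted there. The differences of all probe sets also spread most in batch 3, with an SD of 0.183 against 0.161 and 0.16 in batches 1 and 2. The highest difference of the 47 genes was 0.48, for Pdgfb in batch 2. Without batch 3 the mean differences turned to 0.2 for Fgf12, 0.05 for Pdgfc and 0.075 for Vegfa and that of Hgf was -0.02. These 4 genes were picked by their values in batch 3, so their shift without it follows from that choice. In batch 2 they differed by 0.35 for Fgf12, -0.04 for Pdgfc, -0.21 for Hgf and 0.04 for Vegfa. Markers of stroma and smooth muscle were also low in batch 3, and a link with the 4 genes was not tested. Of 12 looked for, 11 were measured and 10 lay above the silent genes. In batch 1, 10 of the 11 were higher with CTGF and 0 lower, with a median log2 difference of 0.15. In batch 2 it was 7 and 3 with a median of 0.04, and in batch 3 it was 1 and 10 with a median of -0.43, where 47.4% of all probe sets were below 0. For batches 1 and 2 the share of all probe sets above or below 0 was not counted. Over the samples the summed un-logged signal of these markers was 6312 to 7837 in the controls and 5612 to 6933 with CTGF.

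Other marker lists also held low values in batch 3. Of 7 endothelial markers 5 were lower with CTGF in that batch, with a median of -0.11, among them Emcn at -0.64 and Esam at -0.61. Of 10 leukocyte markers 6 were lower and 3 higher, with a median of -0.05, and the mast cell gene Cpa3 was lowest at -1.52. Cpa3 was not low in batch 3 alone, with -0.14 and -0.8 in batches 1 and 2. Its mean difference was -0.82 and its adjusted limma p 0.994. On the same list Mcpt1 was at -0.41 and Kit at 0.31 in batch 3. Of 9 markers of the surface epithelium and mesonephros 6 were lower, with a median of -0.12, and of 8 granulosa precursor markers 5 were lower, with a median of -0.05. Of 7 oocyte markers 5 were higher, with a median of 0.06.

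The receptors of the PDGF ligands are on that marker list and were also looked at as receptors. Pdgfra, the alpha receptor, read 8.20, 8.32 and 8.77 in the controls and 8.31, 8.18 and 7.74 with CTGF, and the difference in batch 3 was -1.03. Pdgfrb, the beta receptor, differed by -0.55 in that batch. The matrix genes Lum and Col1a1 differed by -1.08 and -0.56, and Pgf, placental growth factor, which binds the VEGF receptor FLT1, by -0.86. Whether fewer cells of a type or less RNA per cell lay behind such values cannot be told apart in whole ovaries, and the part of these cell types in the 4 growth factor genes was not tested. Since each batch has the same mean in the deposited values, a pair shows only its difference and not which of its samples stood apart.

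**Figure D4:**
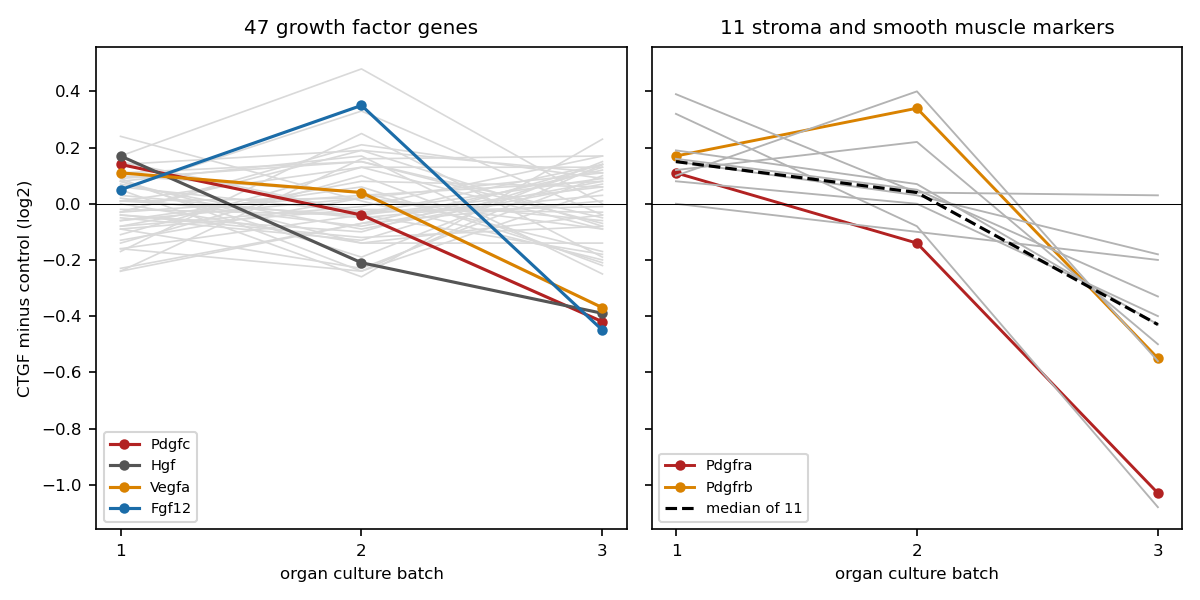
CTGF minus control (vertical axis, log2) in each organ culture batch (horizontal axis; lines join the values of 1 gene and the batches have no order in time here) for the 47 growth factor genes (left) and 11 stroma and smooth muscle markers (right, dashed line their median). Pdgfc, Hgf, Vegfa and Fgf12 lie between -0.45 and -0.37 in batch 3, where 10 of the 11 markers are below 0 with a median of -0.43.

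Other genes of these pathways were taken from 6 lists with 125 measured genes. Of these, 6 (4.8%) had an unadjusted limma p under 0.05, against 3.35% of all probe sets, with 4 higher and 2 lower with CTGF. The lowest adjusted p was 0.994, and with the p of limma 0 met the criteria of the study. Egr1 missed them narrowly, with a ratio of 1.197 between un-logged means of 156 with CTGF and 130 in the controls, so that its count turns on how that ratio is rounded. The median difference of the 125 genes was 0.01, against -0.003 over all probe sets. Each list is given by its counts, which are descriptions. The counts of genes higher and lower have no share over all probe sets beside them and were not tested.

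The receptors not among the 47 genes were Pdgfra, Pdgfrb, the VEGF receptors Flt1 and Flt4, their coreceptors Nrp1 and Nrp2, decoy receptors of the PDGF and FGF families and Mst1r, the receptor tyrosine kinase closest to Met. Kdr, the main receptor of VEGFA, had no probe set with that symbol alone and was not analysed here. Of 9 measured, 3 were higher and 6 lower. Mst1r passed the unadjusted test, with 5.68, 5.56 and 5.54 in the controls and 5.74, 5.86 and 5.88 with CTGF, a log2 difference of 0.23 ± 0.08 (SE, n = 3 pairs; 95% interval 0.04 to 0.43). Its mean signal lay just under the silent-gene level. Pdgfra had a mean log2 difference of -0.35 (95% interval -0.85 to 0.15), Flt4, the receptor of VEGF-C, of 0.15 (95% interval -0.16 to 0.45), and Pdgfrl of -0.07 (95% interval -0.23 to 0.085). The ligands Pgf and Mst1 differed by -0.15 and 0.083 and did not pass.

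Proteins that release, carry or present the ligands, such as the sheddases, FGF binding proteins, heparan sulfate proteoglycans and the enzymes that sulfate them, had 12 of 28 genes higher and 15 lower, with a median of -0.003. Fgfbp1, which carries FGFs out of the matrix, was at 4.80, 4.79 and 4.85 in the controls and 4.62, 4.63 and 4.57 with CTGF. All CTGF values were lower, with a log2 difference of -0.21 ± 0.066 (SE, n = 3 pairs; 95% interval -0.37 to -0.047), at a signal below the silent-gene level. Kl (klotho, a coreceptor of FGF23) and Fgfbp3 differed by -0.14 and -0.087, and the heparan sulfate sulfotransferase Hs6st1 by 0.16 with paired differences of -0.16, 0.10 and 0.54. These 3 genes did not pass.

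The steps from adaptors and Ras proteins to the MAP kinase kinases, with PI3 kinase, formed the largest list, with 37 of 46 genes measured and 34 of them above the silent genes. The other genes of the list were not analysed here. There were 25 higher and 12 lower with CTGF, with a median of 0.027 and 0 at an unadjusted p under 0.05. Pik3cb, a catalytic subunit of PI3 kinase, came nearest to it, at 7.90, 8.00 and 7.97 in the controls and 8.18, 8.08 and 8.12 with CTGF, a log2 difference of 0.17 ± 0.071 (SE, n = 3 pairs; 95% interval -0.001 to 0.34). Hras differed by -0.14, Map2k2, a MAP kinase kinase, by -0.12, and the adaptor Gab2 by 0.097.

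Feedback inhibitors had 9 of 21 genes higher and 11 lower, with a median of -0.003. Sh2b3, an adaptor that restrains cytokine and receptor kinase signals, read 5.37, 5.46 and 5.33 in the controls and 5.70, 5.61 and 5.74 with CTGF. All CTGF values were higher, with a log2 difference of 0.30 ± 0.076 (SE, n = 3 pairs; 95% interval 0.11 to 0.48), at a signal below the silent-gene level. Spry4, a sprouty inhibitor, and Dusp5, a MAP kinase phosphatase, differed by 0.15 and 0.13, and Rasal1, which switches off Ras, by -0.097, none of them past the unadjusted threshold.

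Transcripts that MAP kinase signalling is known to raise or to use had 18 of 28 genes higher and 10 lower, with a median of 0.028. Egr1, a zinc finger factor of the early response, read 7.03, 7.0 and 7.05 in the controls and 7.29, 7.31 and 7.26 with CTGF, a log2 difference of 0.26 ± 0.064 (SE, n = 3 pairs; 95% interval 0.10 to 0.42). Its groups did not overlap and its signal lay above the silent genes. The study selected Egr1 from these same samples, so the value is no independent evidence. Klf10, an early gene of TGFβ and growth factor signals, read 7.27, 7.29 and 7.33 against 7.51, 7.49 and 7.46, a log2 difference of 0.19 (95% interval 0.033 to 0.35). Srf, the serum response factor, read 6.81, 6.73 and 6.80 against 6.58, 6.65 and 6.59 and differed in the other direction, by -0.17 (95% interval -0.34 to -0.009). Ier5, a further early gene, differed by 0.12 (95% interval -0.03 to 0.28). None of the 4 passed after adjustment over all probe sets.

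**Figure D5:**
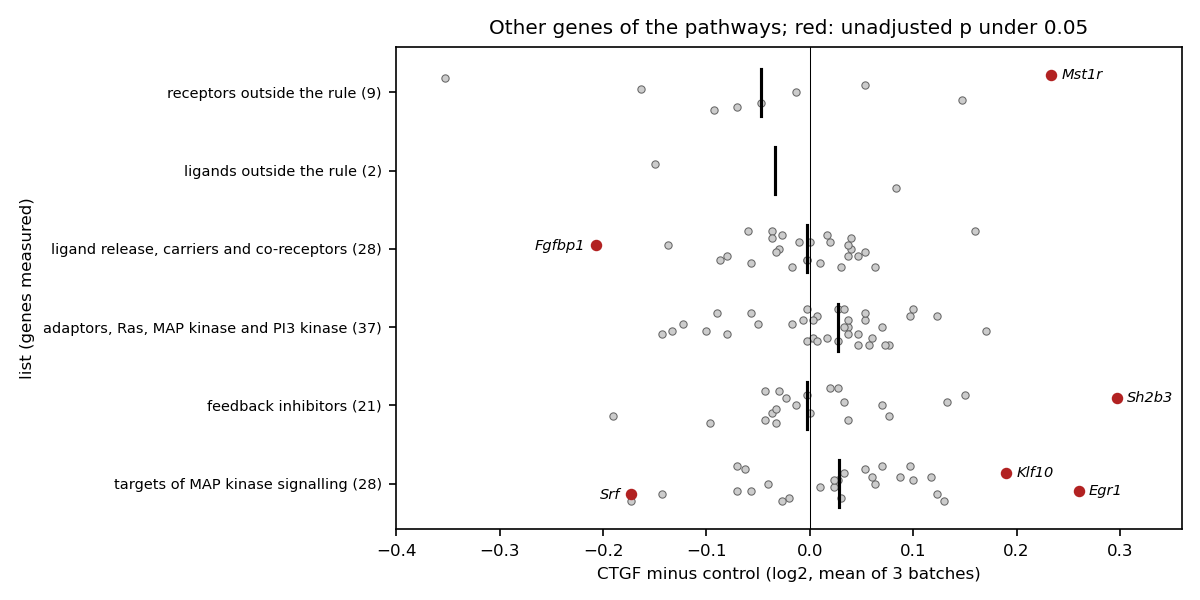
CTGF minus control (horizontal axis, log2, mean of 3 batches) for 125 genes in 6 lists (vertical axis, with the number of genes measured). Points are genes, black bars the medians of the lists, and the 6 red points, Mst1r, Fgfbp1, Sh2b3, Egr1, Klf10 and Srf, have an unadjusted limma p under 0.05.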

How the data were processed

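RNA of 3 control and 3 CTGF samples was hybridized to Rat Gene 1.0 ST arrays. The deposited log2 values are RMA summaries that the authors made in Partek, both named in the submitters' processing notes, with an adjustment for GC content according to the methods. The deposited values have 2 decimals, cover 27342 probe sets and have 0 value columns without a sample. Groups and replicate numbers come from the labels, and the replicate number was taken as the culture batch.

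The average of a batch's control and CTGF value differed between batches by at most 0.005 in any probe set, so batch means had been equalised, a step not described in the sources used here. As a consequence, the deviations of the 2 arrays of a pair from the means of their groups were correlated at -0.9991 to -0.9988. The samples were paired by replicate number, which was taken as the culture batch, and the methods block for culture date. After that step 2 residual degrees of freedom remain, where a fit with no block assumes 4.

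The model was fitted in R 4.3.3 with lmFit and eBayes of limma 3.58.1, with group and culture batch as terms and 4.217 prior degrees of freedom, with no filter on low signals and with p-values adjusted over all probe sets by the Benjamini-Hochberg method. Each group is 3 arrays, which limits the precision of every value. The pools of a batch came from separate culture wells, and intervals and p-values cover the spread between these pools. The criteria of the methods are written with control over treatment, and here the ratio was taken as CTGF over control. Tables and figures were made in Python 3.11.15 with pandas 2.3.3 and matplotlib 3.10.9. The fit was also run on simulated arrays with independent noise. Those arrays lacked the equalised batch means of the deposited values, so that run does not show how the fit performs on them.

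Symbols come from the platform annotation, in which 15097 probe sets carry 1 symbol, 323 several and 11922 none, the last unnamed here. All 47 genes have the same symbol in RefSeq of GRCr8. The members, lists and tests were chosen with earlier results of these data known. The rule for genes given in full took the 12 with the lowest unadjusted p and the 9 receptors, which made 19, and 13 more were chosen after their values were seen. Of each pathway list up to 4 genes with the lowest p were named. Pgf, Pdgfrb, Lum, Col1a1, Emcn, Esam and Cpa3 were named for their values in batch 3, and Mcpt1 and Kit to stand beside Cpa3. Alternatives were a fit with no replicate block, quantile normalization, centred array medians, a filter on low signals, an intensity trend, a robust spread, the 2-way test of the methods without moderation, each batch left out, no minimum difference, the mean of all probe sets of a gene and other thresholds of the silent genes.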

Additional observations from a re-analysis of the deposited data

How the results depend on the processing

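The number of arrays limits what can be seen, since each difference rests on 3 pairs. In limma 0 of the 47 genes had an adjusted p under 0.05 in any setting that was run, and 0 met the criteria of the study. With no replicate block, 4 of the 47 genes and 4415 of all probe sets had an unadjusted p under 0.05, against 0 and 915 with culture batch as a block. The 4 were Pdgfb, Fgf17, Nrg2 and Fgf11, and this fit counts degrees of freedom that the equal batch means had used up. Leaving out 1 batch at a time gave 0 to 1 of the genes, which were Hgf (-0.3) without batch 1 and Fgf2 (-0.2) without batch 3. The filter on low signals left 392 probe sets at an unadjusted p under 0.05, with fewer tested. At the study's criteria the count over all probe sets was 30 with the methods' 2-way test, 217 with no minimum difference and 185 to 273 with 1 batch left out, against 119. With 1 batch left out, 15 to 23 of the 47 genes had one direction in the batches that remained, where fewer batches have to agree. The median difference of the 47 genes was 0.01 after quantile normalization, 0.013 with centred array medians and -0.01 to 0.01 with 1 batch left out, against 0.0. With the threshold at the median of the silent genes, 35 of the 47 genes lay above it, and with the threshold at their maximum 14, against 18 at the 95th percentile.

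Of the 32 genes given by name and value, 13 changed the sign of their difference when 1 batch was left out, and 0 did so in the other settings. The values with 1 batch left out ran for Fgfr2 from -0.04 to 0.165, for Fgfr1 from -0.04 to 0.07, for Erbb4 from -0.055 to 0.115, for Met from -0.015 to 0.075, for Vegfa from -0.165 to 0.075, for Vegfb from -0.03 to 0.05, for Vegfd from -0.09 to 0.02. They ran for Vegfc from -0.09 to 0.04, for Pdgfa from -0.02 to 0.07, for Pdgfc from -0.23 to 0.05, for Fgf12 from -0.2 to 0.2, for Nrg1 from -0.01 to 0.07, for Btc from -0.045 to 0.08. None of the 13 had passed a test, and the cause was not tested.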
